A study of Mus musculus with 10 samples.

Results

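Choroidal endothelial identity genes were a group of 10 genes given by name that mark the inner lining of blood vessels, and all 10 were found among the 26360 genes listed for the posterior wall of the mouse eye. They were read in 10 total RNA libraries from 5 wild-type C57BL/6J mice, 1 library from the right eye (n = 5) and 1 from the left eye (n = 5) of each animal. Labels give the tissue as RPE (the pigmented epithelium behind the retina) with choroid and sclera, at postnatal day 34, although the extraction protocol in the labels speaks of retinae. A goggle with a -20 D lens, which induces myopia, covered 1 eye of each animal for 10 days from postnatal day 24, and the other eye was left without a lens. Goggles were attached under ketamine and xylazine, and refraction was read in both eyes at the end. Which side wore the lens was not given in the sources used here, so a right minus left difference compares sides and its sign has no treatment meaning.

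The choroid is the vascular layer that supplies the outer retina. Its inner capillary bed, the choriocapillaris, has a fenestrated endothelium, with pores that let plasma components pass towards the RPE, whereas the vessels of the retina are sealed by tight junctions. Choroidal thickness and blood flow are studied in eye growth and myopia, and endothelial transcripts are a common readout of its vessels. In bulk tissue a lower number of endothelial cells and less RNA per endothelial cell cannot be told apart.

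Values are CPM, read counts scaled to the library total. Steps between low values implied 66.9 to 94.3 M reads per library, of which the listed genes held 42.7% to 47.1%. Of the 10 genes, 9 averaged 1 CPM or more and entered the test among 15414 genes in all, and these 9 rested on 336 (Esm1) to 13283 (Vwf) implied reads per library. Car4 stayed below that level. Per the GENCODE M21 annotation, Cdh5 overlaps an antisense gene, and Plvap and Esm1 overlap the protein-coding genes Gtpbp3 and Gzmk on the opposite strand. The use of strand in counting was not given in the sources used here, so reads of these 3 genes could include some of their neighbours.

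Levels per length of exon put Plvap first among the 10 genes. Length was that of all annotated exons of a gene merged over its transcripts, from 1416 bases for Cldn5 to 16064 for Vwf. The order depends on this definition, and a gene whose expressed transcript is shorter than its merged exons would stand higher. Plvap, the protein of the diaphragms that span endothelial pores, was at 21.0 ± 2.54 CPM per kb (SD, n = 10 libraries), and Cldn5, the main tight junction claudin of endothelium, followed at 10.8 ± 1.78 CPM per kb. The 10 libraries did not overlap between the pair, and the Plvap level per kb was 1.72 to 2.08 times that of Cldn5 in each of them. Emcn, which encodes endomucin, a sialomucin of the capillary and venous surface, was at 9.83 ± 1.25 CPM per kb. Next came the receptor genes Tek (7.96 ± 0.866 CPM per kb) and Tie1 (7.70 ± 0.840 CPM per kb). Vwf, which encodes von Willebrand factor, an adhesive protein for platelets, had 7.13 ± 1.17 CPM per kb. The adhesion genes Cdh5 (6.19 ± 0.676 CPM per kb) and Pecam1 (5.82 ± 0.599 CPM per kb) lay close below. From Cldn5 down to Pecam1 each neighbouring pair overlapped in its range over libraries. Emcn was above Tek within each of the 10 libraries, while the order of Tek and Tie1 held in 6 of 10. Esm1, a secreted proteoglycan of sprouting and activated endothelium, was at 2.83 ± 0.342 CPM per kb and did not overlap Pecam1.

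**Figure D1:**
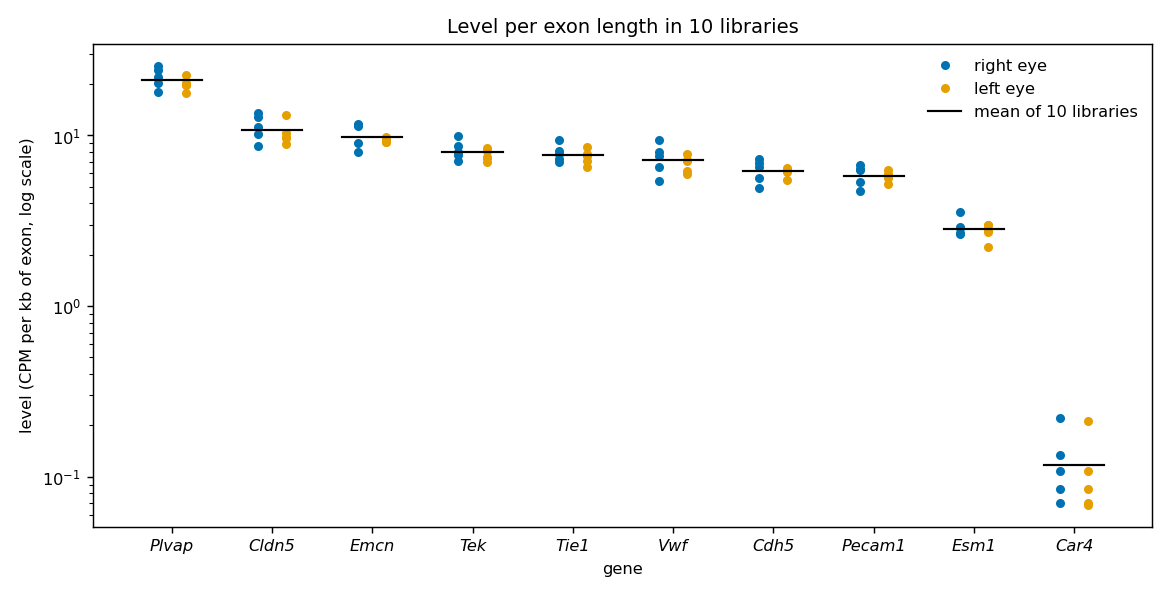
Level of each gene per kilobase of annotated exon (CPM per kb, log axis) in the 5 right-eye and 5 left-eye libraries, with the mean of the 10 libraries as a line. Plvap stands highest at 21.0 CPM per kb, 7 genes from Cldn5 to Pecam1 lie between 10.8 and 5.82 CPM per kb, and Car4 lies far below at 0.116 CPM per kb.

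Car4 (chr11:84957786-84966044, plus strand, GRCm38 as for all genes here) stood apart from the other 9 genes. It encodes a carbonic anhydrase anchored to the outer cell surface and is widely used as a marker of the choriocapillaris, yet it was at 0.244 ± 0.117 CPM in right eyes and 0.214 ± 0.119 CPM in left eyes (SD, n = 5 each). The implied reads in animals 61, 64, 65, 66 and 68 were 16, 10, 14, 38 and 25 in right eyes, against 31, 10, 14, 9 and 20 in left eyes. The 2 highest counts came from opposite sides of different animals, and the ranges of both sides overlapped. The 38 reads in the right eye of animal 66 have an exact Poisson 95% interval of 26.9 to 52.2 reads, and the 9 reads in its left eye one of 4.12 to 17.1 reads, which cover counting error only. Per length of exon Car4 was at 0.116 ± 0.0570 CPM per kb, and Esm1, the next gene up, was 12.8 to 43.6 times higher per kb in each library. Of the 26360 listed genes 27.5% had a lower mean CPM than Car4. Other carbonic anhydrase genes were well covered, led by Car14, a membrane-bound form found in the RPE, at 168 ± 21.3 CPM in right eyes and 151 ± 11.7 CPM in left eyes. Car12, another membrane-bound form, was at 148 ± 21.3 CPM in right eyes and 131 ± 9.40 CPM in left eyes. Of the 13 other carbonic anhydrase genes 10 were tested and 0 were called between the eyes (0% of all genes tested). At an unadjusted p under 0.05 limma also counted 0 of them. Over all genes tested 0.804% were counted there as higher and 1.99% as lower in the right eye.

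Proximal promoters are shown as background to these genes, and their part in the levels was not tested. Factors of the ETS family, such as Erg and Fli1, are known to drive many endothelial genes and bind around the letters GGAA. RefSeq windows on GRCm38.p6, from 250 bases before to 50 after the annotated start, were at hand for 6 of the 10 genes, and 4 that differ most in this motif are printed on the gene's strand, with GGAA or its reverse complement TTCC in capitals. They are chr4:118489800-118490099 (minus strand) for Tie1, chr3:137340828-137341127 (plus strand) for Emcn, chr4:94739039-94739338 (plus strand) for Tek and chr16:18776597-18776896 (plus strand) for Cldn5.
Tie1: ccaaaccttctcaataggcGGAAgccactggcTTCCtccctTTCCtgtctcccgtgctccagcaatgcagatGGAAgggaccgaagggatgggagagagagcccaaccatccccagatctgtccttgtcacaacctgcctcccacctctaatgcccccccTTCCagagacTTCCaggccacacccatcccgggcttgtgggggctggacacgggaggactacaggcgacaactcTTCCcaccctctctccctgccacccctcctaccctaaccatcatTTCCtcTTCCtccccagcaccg
Emcn: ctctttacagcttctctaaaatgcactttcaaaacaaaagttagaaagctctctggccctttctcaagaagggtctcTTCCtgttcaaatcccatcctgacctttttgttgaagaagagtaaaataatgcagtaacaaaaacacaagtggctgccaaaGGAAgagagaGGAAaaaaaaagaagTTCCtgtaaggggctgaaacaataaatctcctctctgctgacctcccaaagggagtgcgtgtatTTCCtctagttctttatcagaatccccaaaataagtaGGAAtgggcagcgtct
Tek: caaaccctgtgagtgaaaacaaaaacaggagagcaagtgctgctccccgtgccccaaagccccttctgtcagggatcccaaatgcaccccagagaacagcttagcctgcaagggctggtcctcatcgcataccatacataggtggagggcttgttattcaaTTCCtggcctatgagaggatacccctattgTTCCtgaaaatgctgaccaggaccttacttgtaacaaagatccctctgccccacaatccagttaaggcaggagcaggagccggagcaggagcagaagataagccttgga
Cldn5: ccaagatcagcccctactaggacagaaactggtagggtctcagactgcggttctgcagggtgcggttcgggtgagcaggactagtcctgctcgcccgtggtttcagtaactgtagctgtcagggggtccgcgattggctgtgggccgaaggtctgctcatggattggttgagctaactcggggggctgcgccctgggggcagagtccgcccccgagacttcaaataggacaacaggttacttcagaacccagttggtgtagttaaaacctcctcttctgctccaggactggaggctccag
The start used for Tie1 lies 212 bases and that for Emcn 11 bases downstream of the deposited gene start. Most of the Tie1 window therefore falls within the deposited gene. The Tie1 window held 9 such motifs, the Emcn window 6, the Tek window 2 and the Cldn5 window 0. The Esm1 and Car4 windows, not printed, held 4 each. Of all promoter windows of this length in the table, 96.0% held the motif at least once, with a median of 3, and 99.4% held as many as Tie1 or fewer. The longer form AGGAAG, which contains GGAA, was found 2 times in Tie1, 2 times in Emcn and in 35.1% of all windows. These are matches of letters on both strands, not sites of binding, and a window without one says nothing of the factor.

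The comparison between fellow eyes asked whether endothelial genes differed between the right and left eye of the same animal. In limma, blocked by animal, 0 of the 9 tested genes were called at an adjusted p under 0.05, against 0% of the 15414 genes in either direction. At an unadjusted p under 0.05, limma counted 0 of the 9, against 0.804% of all genes in the direction of a higher right eye and 1.99% in that of a lower one. Those shares were 124 and 306 genes, and the lean turned with scaling by trimmed means (TMM), which gave 272 genes in the higher and 204 in the lower direction. The 9 estimates were all above 0, with a median log2 difference of 0.09, where the median over all genes was -0.01 and 46.0% of genes had a positive estimate. With TMM all 9 stayed above 0, with a median of 0.11, but the median over all genes also turned positive, at 0.02. Scaled to the listed genes, the medians were 0.08 for the 9 genes and -0.02 for all genes. The 95% intervals of the 9 genes reached from 0.876-fold (Cdh5) to 1.27-fold (Cldn5).

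Plvap (chr8:71497765-71511752, minus strand), Emcn (chr3:137341067-137432185, plus strand) and Cldn5 (chr16:18776847-18778262, plus strand) had the largest estimates with all 5 animals. That order rested on animal 65: without it the log2 differences were 0.03 for Plvap, 0.08 for Emcn and 0.02 for Cldn5, below the 0.10 of Tek. Plvap was at 44.0, 40.3, 50.8, 48.0 and 35.5 CPM in the right eyes of animals 61, 64, 65, 66 and 68, against 39.1, 39.5, 35.4, 44.7 and 40.6 CPM in their left eyes. The right eye was higher in 4 of 5 animals and lower in animal 68, and the sides overlapped. The mean was 43.7 ± 6.07 CPM in right and 39.9 ± 3.33 CPM in left eyes, a log2 difference of 0.13 ± 0.09 (SE, adjusted p = 0.9998 in limma). Emcn was at 63.0, 49.0, 61.3, 62.6 and 43.1 CPM in right eyes, against 51.6, 49.6, 49.9, 52.8 and 49.2 CPM in left eyes of the same animals. The left eyes lay close together, and the right eyes fell both above and below them. The SD of Emcn was accordingly 9.15 CPM around a mean of 55.8 CPM in right eyes and 1.53 CPM around 50.6 CPM in left eyes, and the log2 difference was 0.12 ± 0.08 (SE, adjusted p = 0.9998 in limma). Cldn5 was at 15.9, 14.4, 18.3, 19.2 and 12.3 CPM in right eyes, against 14.6, 13.7, 12.5, 18.5 and 13.9 CPM in left eyes. Both eyes of animal 66 were high for this gene, and the log2 difference was 0.12 ± 0.10 (SE, adjusted p = 0.9998 in limma).

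The receptor genes Tek (chr4:94739289-94874976, plus strand) and Tie1 (chr4:118471191-118490061, minus strand) gave smaller estimates with all 5 animals. Tek encodes the receptor for angiopoietins, which keeps vessels quiescent and stable. It was at 40.8, 36.3, 37.8, 46.5 and 33.3 CPM in right eyes, against 39.6, 32.9, 34.8, 35.3 and 38.1 CPM in left eyes. The right eye was higher in each animal but 68, with a log2 difference of 0.10 ± 0.08 (SE, adjusted p = 0.9998 in limma). Tie1, a related receptor that modulates Tek signalling, was at 38.3, 35.6, 40.0, 46.1 and 34.3 CPM in right eyes, against 34.6, 37.4, 31.9, 38.5 and 41.9 CPM in left eyes. It was higher in the right eye of 3 of 5 animals, and its log2 difference was 0.07 ± 0.09 (SE, adjusted p = 0.9998 in limma).

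The junction genes Cdh5 (chr8:104101625-104144511, plus strand) and Pecam1 (chr11:106654217-106750628, minus strand) had the estimates nearest 0 with all 5 animals. Cdh5, the cadherin of endothelial junctions, was at 27.4, 23.7, 28.8, 30.5 and 20.8 CPM in right eyes, against 25.5, 23.2, 26.5, 26.5 and 27.2 CPM in left eyes. It was higher in the right eye of 4 of 5 animals, but the lower right eye of animal 68 brought the log2 difference to 0.01 ± 0.09 (SE, adjusted p = 0.9998 in limma). Pecam1, an adhesion molecule of endothelial contacts that platelets and leukocytes also carry, was at 41.6, 33.0, 39.4, 39.2 and 29.6 CPM in right eyes, against 39.0, 35.0, 32.5, 36.3 and 37.1 CPM in left eyes. Its log2 difference was 0.01 ± 0.09 (SE, adjusted p = 0.9998 in limma), with a 95% interval from 0.878-fold to 1.16-fold.

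Vwf (chr6:125546774-125686679, plus strand) and Esm1 (chr13:113209659-113218098, plus strand) encode secreted proteins. Vwf, also carried by platelets, was at 129.1, 105.1, 121.2, 151.7 and 87.1 CPM in right eyes, against 125.6, 114.4, 96.0, 115.8 and 99.8 CPM in left eyes. It had the widest spread of the 9 genes, 1.74 times between its highest and lowest library, and the log2 difference was 0.09 ± 0.10 (SE, adjusted p = 0.9998 in limma). Esm1 was at 5.59, 6.06, 7.48, 6.00 and 5.55 CPM in right eyes, against 5.73, 4.65, 5.83, 6.26 and 6.30 CPM in left eyes. It was higher in the right eye of 2 of 5 animals, fewer than any other of the 9, with a log2 difference of 0.09 ± 0.11 (SE, adjusted p = 0.9998 in limma).

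**Figure D2:**
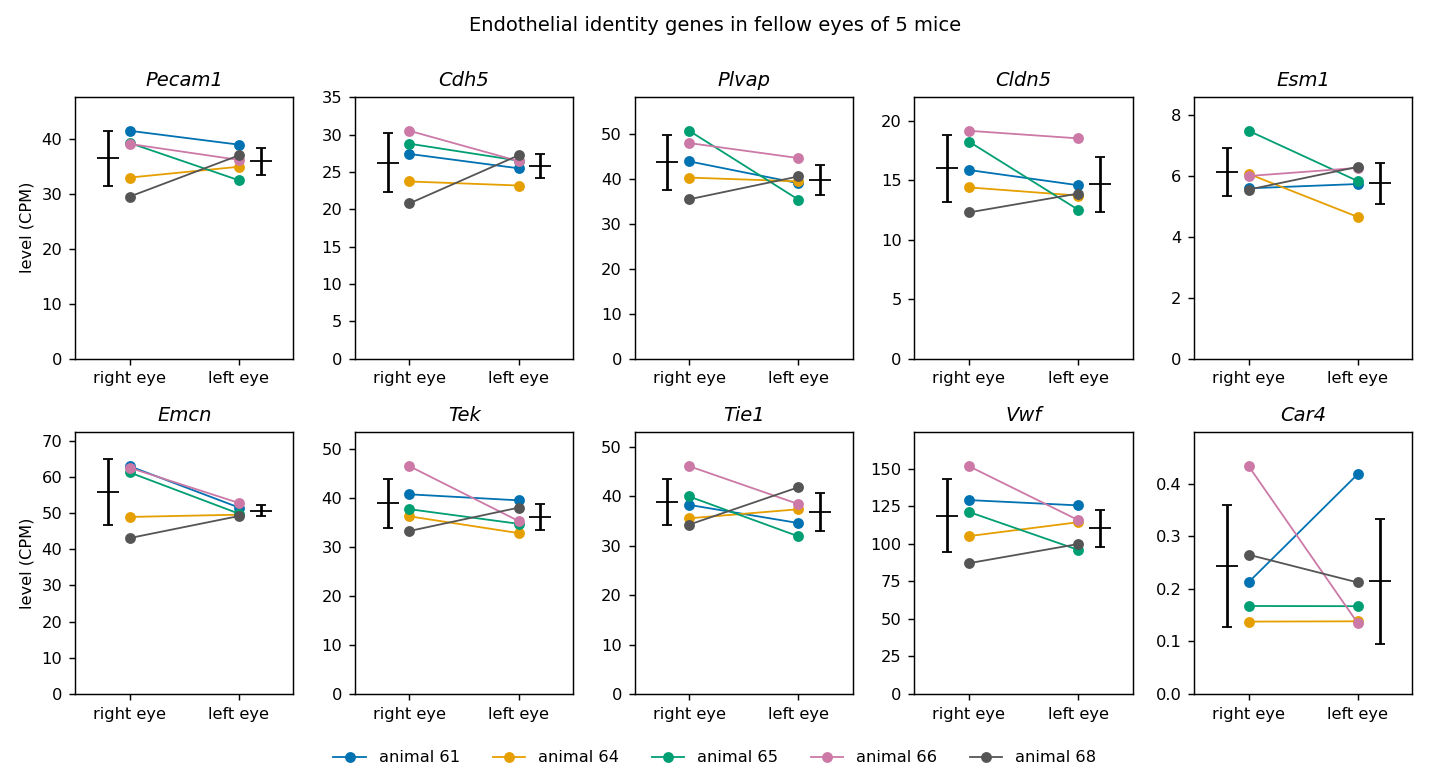
Level (CPM, each axis from 0) of the 10 genes in the right and left eye of each animal, joined by a line per animal, with mean and SD of the 5 libraries of each side beside the points. Right and left eyes overlap for each of the 10 genes, and animal 68 has the lower level in its right eye for each of the genes but Car4.

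**Figure D3:**
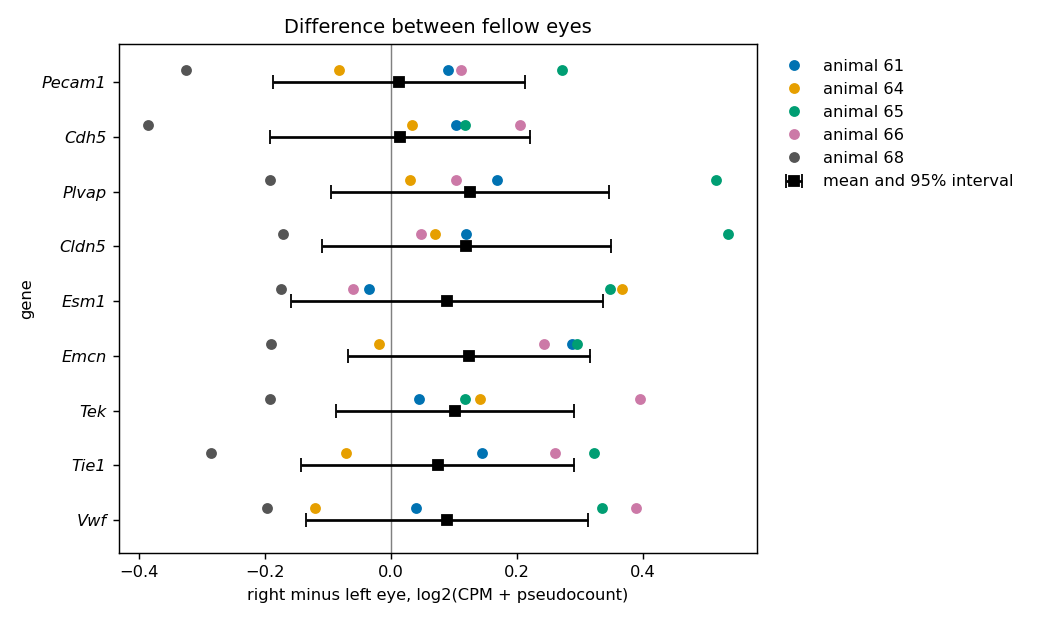
Right minus left difference on the log2(CPM + pseudocount) scale for the 9 tested genes, with the 5 animals as points and limma's estimate with its 95% interval as a square and bar. Each of the 9 intervals includes 0; animal 68 lies below 0 for all 9 genes and animal 65 above 0 for all 9.

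The 9 genes shared their direction within 2 of the animals. In animal 65 all 9 were higher in the right eye, by 0.12 to 0.54 on the log2 scale, while 60.8% of all genes tested were. In animal 68 all 9 were lower in the right eye, with log2 differences of -0.39 to -0.17, where 37.4% of all genes tested were higher there. Animals 61 and 66 each had 8 of 9 genes higher in the right eye, and animal 64 had 5 of 9. The median log2 difference of the 9 genes was 0.10 in animal 61, 0.03 in animal 64, 0.32 in animal 65, 0.20 in animal 66 and -0.19 in animal 68. As a result the right eye was higher in at least 4 of 5 animals for 4 of the 9 genes (14.2% of all genes) and in 5 of 5 for none of them (1.77% of all genes). The sides overlapped for all 9, and 0.214% of all genes tested did not overlap.

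Single libraries stood at the ends of the range. The right eye of animal 66 was the highest of the 10 libraries for 5 of the 9 genes (11.2% of all genes), and the right eye of animal 68 was the lowest for 5 of the 9 (19% of all genes). All 9 genes were above their own mean in the right eyes of animals 65 and 66, where 55.7% and 49.3% of all genes tested were. None of the 9 was above its own mean in the right eye of animal 68, where 37.4% of all genes tested were. The median difference of the 9 genes leaned on these animals: it was 0.16 without animal 68, 0.02 without animal 65 and 0.03 without animal 66, and no gene was called in any of these fits.

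**Figure D4:**
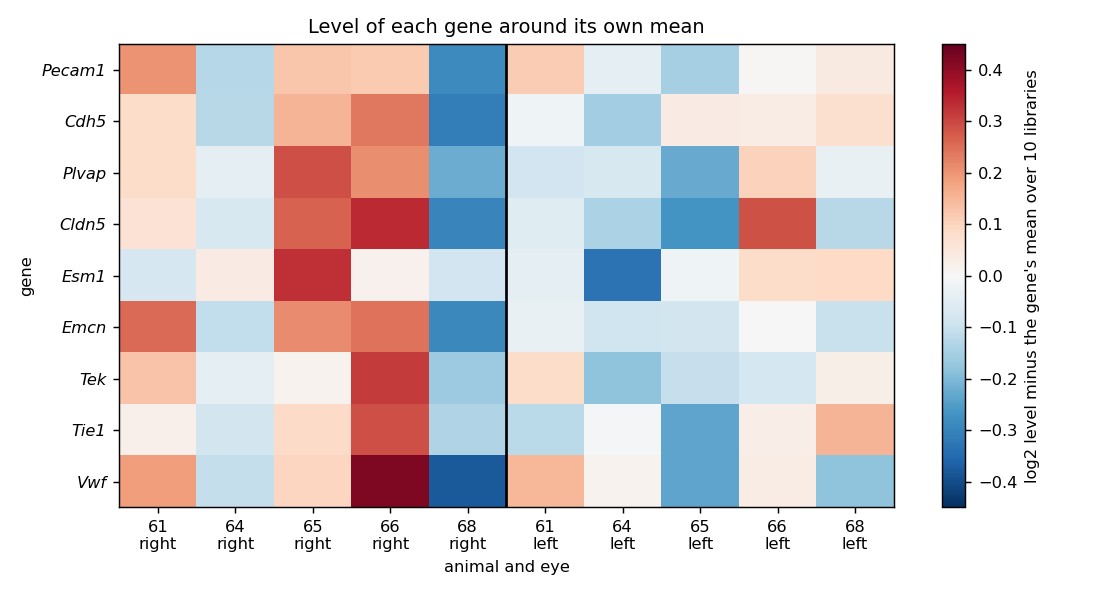
Log2 level of each tested gene minus its own mean over the 10 libraries, as a colour, for right eyes (left block) and left eyes (right block) of the 5 animals. The right eyes of animals 65 and 66 are above the mean for all 9 genes and the right eye of animal 68 is below it for all 9.

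Set against the other 8 genes, most of the 9 varied less between libraries. The SD over libraries of the log2 level was 0.15 to 0.23, and that of the log2 ratio to the mean of the other 8 genes was 0.07 for Plvap, 0.08 for Emcn and Cdh5 and 0.09 for Pecam1. Esm1 was the exception, with an SD of 0.17 for the ratio and 0.17 for the level. How many of all genes tested would also vary less as such a ratio was not counted. Among the 501 genes nearest in level, the SD of the level was at percentile 48.5 for Esm1. For the other 8 genes it ran from percentile 72.7 (Tek) to 92.4 (Vwf). The Pecam1 ratio was lower in the right eye in 5 of 5 animals, with log2 differences of -0.14 to -0.02 (5.74% of all genes tested had a difference below that of the same 8 genes in 5 of 5 animals), and this was picked out after its values were seen. Emcn over Cdh5 was 2.12 ± 0.102 in right eyes and 1.97 ± 0.129 in left eyes. It was higher in the right eye of 4 of 5 animals, the largest such count among the pairs formed. Cldn5 over Plvap, the barrier gene against the pore gene, was 0.365 ± 0.0201 in right eyes and 0.366 ± 0.0296 in left eyes. Tie1 over Tek was 1.00 ± 0.0465 in right eyes and 1.02 ± 0.119 in left eyes. The right eye was higher in 3 of 5 animals for Cldn5 over Plvap, Plvap over Cdh5 and Vwf over Cdh5. For Tie1 over Tek, Esm1 over Plvap and Pecam1 over Cdh5 it was higher in 2 of 5. These ratios compare CPM of both genes without length and carry no test.

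Other vascular genes were not called either. Of 19 tested pan-endothelial genes 0 were called and 17 had a positive estimate, with a median log2 difference of 0.08. Over all genes tested, 46.0% had a positive estimate. The sum of the pan-endothelial list had the direction of the mean of the 9 endothelial genes in 5 of 5 animals, so its estimates are not independent. The most abundant genes of this list were Ptprb, a phosphatase that restrains Tek, at 193 ± 25.7 CPM in right and 181 ± 10.5 CPM in left eyes, and Kdr, a receptor for vascular endothelial growth factor, at 110 ± 13.9 CPM in right and 102 ± 6.00 CPM in left eyes. The angiopoietin pathway had 3 of 8 genes with a positive estimate and a median of -0.04. Its ligand genes were at 51.9 ± 7.99 CPM in right and 48.6 ± 3.04 CPM in left eyes for the agonist Angpt1, and at 4.89 ± 0.987 CPM in right and 5.11 ± 0.998 CPM in left eyes for the context-dependent Angpt2. Svep1, an extracellular matrix protein that binds Tie1, was at 173 to 203 CPM in right and 146 to 195 CPM in left eyes. Of the 14 endothelial transcription factors 6 had a positive estimate (median -0.01), led by Epas1 at 143 ± 27.4 CPM in right and 148 ± 18.6 CPM in left eyes and Ets1 at 57.0 ± 6.70 CPM in right and 56.1 ± 3.51 CPM in left eyes. Limma called 0 genes of these lists, and at an unadjusted p under 0.05 it counted 1, Nr2f2, a factor of venous identity that is also on the venous list. Nr2f2 was at 30.3 ± 2.65 CPM in right and 32.5 ± 3.01 CPM in left eyes (log2 difference -0.10 ± 0.04, SE, adjusted p = 0.9998 in limma), lower in the right eye of 5 of 5 animals, as were 2.67% of all genes tested. Its unadjusted p was 0.047, a side on which 1.99% of all genes fell under 0.05, and the count and direction were noted after its values were seen.

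Lists of vessel types held no called gene, and 46.0% of all genes tested had a positive estimate. Positive estimates were found for 6 of 11 arterial genes (median 0.02), 3 of 5 venous genes (median 0.01), 7 of 9 capillary genes (median 0.07), 4 of 8 sprouting genes (median -0.01), 8 of 13 barrier genes (median 0.01) and 2 of 7 lymphatic genes (median -0.35), and 0 genes of any were called in limma. The arterial list was led by Jag1, a Notch ligand, at 49.3 ± 2.38 CPM in right and 48.3 ± 3.28 CPM in left eyes, and by Sema3g at 22.9 ± 2.16 CPM in right and 22.6 ± 3.01 CPM in left eyes. Ephb4, a receptor of veins, was at 31.7 ± 4.46 CPM in right and 31.6 ± 4.41 CPM in left eyes. Of the capillary list, Aqp1, a water channel, was at 134 ± 10.4 CPM in right and 145 ± 22.1 CPM in left eyes. Of the sprouting list, Nid2, a basement membrane protein, was at 49.3 ± 6.39 CPM in right and 51.8 ± 4.64 CPM in left eyes, and Plxnd1, a semaphorin receptor, at 34.4 ± 5.24 CPM in right and 34.1 ± 1.27 CPM in left eyes. The lymphatic list was led by Reln, at 220 ± 97.0 CPM in right and 278 ± 56.7 CPM in left eyes, and Pdpn, at 93.4 ± 9.15 CPM in right and 88.7 ± 4.20 CPM in left eyes, and cells other than lymphatic endothelium also express both. The leading barrier genes were Slc2a1, the glucose transporter that the RPE also carries, at 285 ± 47.8 CPM in right and 279 ± 30.5 CPM in left eyes, and Slco1a4, an organic anion transporter, at 91.3 to 116 CPM in right and 90.5 to 105 CPM in left eyes. At an unadjusted p under 0.05, limma counted Slco1c1 of the barrier list, at 29.4 ± 10.1 CPM in right and 23.8 ± 5.78 CPM in left eyes. It also counted Lyve1 of the lymphatic list, at 0.958 to 2.16 CPM in right and 1.54 to 3.73 CPM in left eyes, and Ccl21a, at 0.885 ± 0.473 CPM in right and 1.40 ± 0.547 CPM in left eyes. These 3 genes are named for that count after their values were seen, and over all genes tested the shares were 0.804% higher and 1.99% lower in the right eye. Sele, Selp and Ackr1, genes of activated or postcapillary venules, were below the level for testing. Each was under 1 CPM on average on both sides.

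Genes with the most similar pattern were found by Pearson's r of their log2 level with the mean centred level of the 9 genes over 10 libraries, among 9788 genes averaging 5 CPM or more. The 6 closest were Dis3l (r = 0.95), Sav1 (r = 0.95), Ednra (r = 0.94), Yipf5 (r = 0.94), Ptprb (r = 0.94) and Rassf3 (r = 0.94). Of all genes ranked 2.73% had an r over 0.8. Fellow eyes and shared tissue make the 10 libraries dependent, and r is given as a description.

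Markers of other cells also differed between libraries. Of the list genes present in the data, none was at 0 in all 10 libraries. Lep of the adipocyte list and Etv2 of the endothelial transcription factor list were absent from the data. The summed level of 8 rod genes, led by Gnat1, the rod transducin, was 83.4 to 1098 CPM in right eyes (median 172) and 134 to 519 CPM in left eyes (median 228). The right eye of animal 68, lowest for the endothelial genes, had the highest rod sum, and the right eye of animal 66, highest for them, had 90.5 CPM. In 4 of 5 animals the eye with the higher rod sum had the lower endothelial mean, animal 64 being the exception. The sum of adipocyte genes was likewise opposite to the endothelial mean in 4 of 5 animals, and that of inner retina genes in 3 of 5. Surface epithelium and red cell sums were also opposite in 3 of 5. Among lists of vessel types, the venous and lymphatic sums were opposite in 3 of 5 animals and the sprouting sum in 2 of 5. The arterial, capillary and barrier sums were opposite in 1 of 5. The part of retinal tissue in the differences between libraries was not tested. The sum of 10 pericyte and vascular smooth muscle genes, led by Rgs5 and Pdgfrb, was 807 to 999 CPM in right eyes (median 960) and 889 to 932 CPM in left eyes (median 915). It had the same direction as the endothelial mean in 4 of 5 animals, with its lowest value in the right eye of animal 68 and its highest in the right eye of animal 66.

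Cells that share single markers with endothelium were also read. Platelet genes were low, with a summed level of 5.24 to 6.999 CPM in right eyes (median 6.29) and 6.03 to 7.13 CPM in left eyes (median 6.37), led by Pf4 and Itga2b. Gp1ba, part of the platelet receptor for von Willebrand factor, was at 0 to 0.132 CPM in right eyes and listed at 0 in each left eye. Leukocyte genes, led by Csf1r and Lyz2, summed to 193 to 242 CPM in right eyes (median 222) and 202 to 237 CPM in left eyes (median 211). The 8 RPE genes, led by Rgr and Ttr, summed to 5140 to 6809 CPM in right eyes (median 6505) and 4943 to 5558 CPM in left eyes (median 5364). Red cell genes, led by Hbb-bs and Hba-a1, summed to 643 to 1253 CPM in right eyes (median 765) and 575 to 1098 CPM in left eyes (median 781). Skeletal muscle genes, led by Ttn and Myh4, summed to 3616 to 7541 CPM in right eyes (median 4255) and 2031 to 9407 CPM in left eyes (median 4407). Adipocyte genes summed to 33.9 to 61.5 CPM in right eyes (median 44.1) and 43.7 to 63.3 CPM in left eyes (median 57.6), nearly all of it Plin4, while Adipoq, the defining adipocyte marker, was at 0.0133 to 0.202 CPM in right and 0 to 0.203 CPM in left eyes. The direction of the RPE sum and of the leukocyte sum matched the endothelial mean in 4 of 5 animals, and that of the muscle sum in 3 of 5. All 7 tested RPE genes had positive estimates (46.0% of all genes tested), with a median log2 difference of 0.19, against 0.09 for the 9 endothelial genes. The part of each of these cell types in the endothelial levels was not tested.

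Scleral fibroblast genes, led by Col1a2 and Col1a1, summed to 6323 to 8726 CPM in right eyes (median 7608) and 6023 to 8498 CPM in left eyes (median 7545). Surface epithelium genes, led by Aldh3a1 and Krt15, summed to 168 to 720 CPM in right eyes (median 272) and 344 to 974 CPM in left eyes (median 635), with the lower median in right eyes. Myelin and Schwann cell genes, led by Pmp22, summed to 113 to 145 CPM in right eyes (median 127) and 115 to 179 CPM in left eyes (median 120). Inner retina genes summed to 1235 to 1389 CPM in right eyes (median 1297) and 1232 to 1291 CPM in left eyes (median 1285). The inner retina list is carried by Glul and Rlbp1, and the RPE also expresses Rlbp1. Limma called 0 genes of these lists of other cells, and at an unadjusted p under 0.05 it counted Plin4 and the muscle gene Actn3, both with lower means in right eyes. Both are named for that count after their values were seen, and 1.99% of all genes tested were counted on that side.

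**Figure D5:**
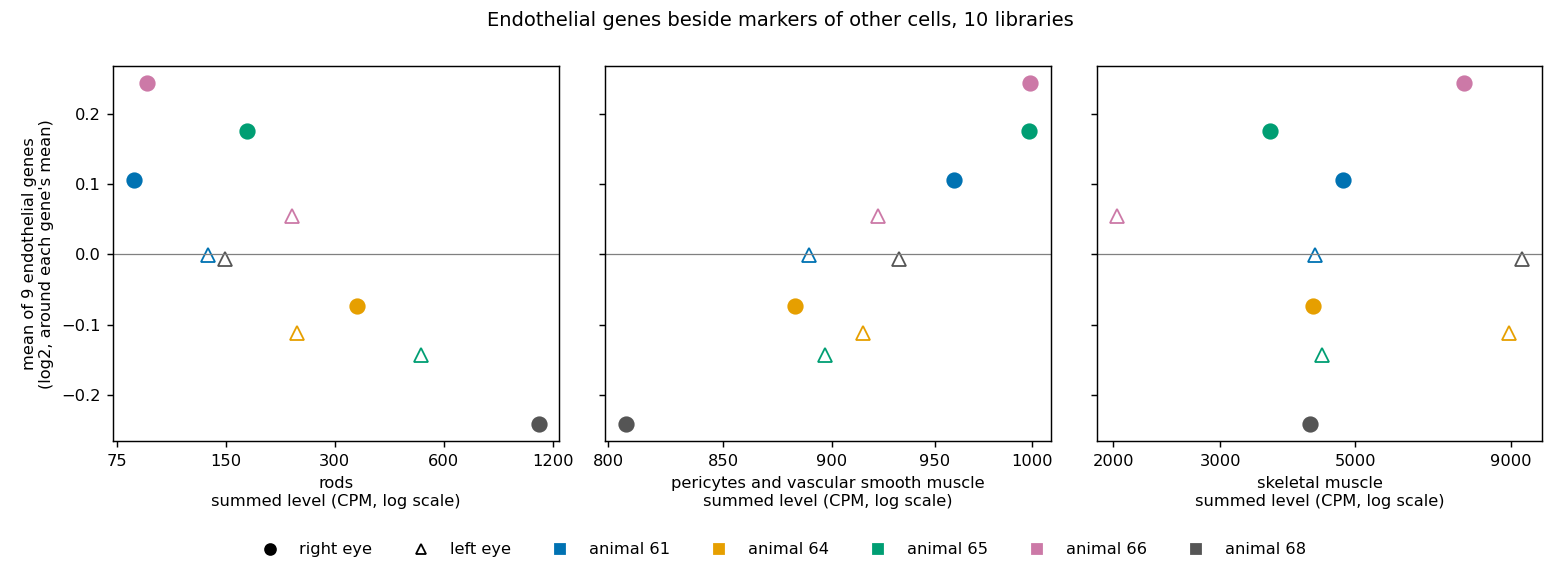
Mean log2 level of the 9 tested endothelial genes around their own means, against the summed CPM (log axis) of rod, pericyte and smooth muscle, and skeletal muscle genes in the 10 libraries. The right eye of animal 68 has the lowest endothelial mean, the highest rod sum (1098 CPM) and the lowest pericyte sum (807 CPM).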

How the data were processed

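RNA of RPE, choroid and sclera from both eyes of 5 animals was sequenced after ribosomal RNA depletion, per the labels' protocols. The deposited values fit CPM with 1e-04 added to each value by the authors, which was subtracted here. STAR, Partek and GRCm38 (mm10) appear in the submitters' processing notes, with versions, annotation and strand use not given in the sources used here. Of the low values, 88.7% to 89.6% were whole multiples of a step (tolerance 0.05), so no count test was run, although the reads of Car4 came out whole. A floor of 3 reads was 0.0318 to 0.0448 CPM. No pair of libraries, of 45, was as alike as sampling noise allows (chi-square over its degrees of freedom was 11.5 to 59.2).

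Genes averaging 1 CPM or more were tested as log2(CPM + 0.230) with limma 3.58.1 in R 4.3.3 (intensity trend, animal and side as terms, Benjamini-Hochberg adjustment), and differences on this scale understate changes of low genes. The animal is a block because titles share animal numbers and the protocol compares fellow eyes. Deviations of fellow eyes correlated at r = 0.27, 0.11, 0.05, -0.19 and -0.05 in animals 61, 64, 65, 66 and 68, above 0.1 in 2 of 5 animals. Nothing else separates replicates. As the block takes out each animal's own level, p-values rest on the scatter of fellow-eye differences among these 5 animals. The script was tested on simulated data. Exon lengths come from GENCODE M21, whose gene starts equalled the deposited ones for 99.4% of genes. Figures were drawn with matplotlib 3.10.9.

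The members and the 22 further gene lists were chosen with earlier results of these data known. A gene each of the rod and the myelin list is not reported here and is left out of their sums. Named genes are the members, the 2 most abundant genes of a list or any called, and the 6 genes most similar to the members, with a few others named for their role. The alternatives covered the block, scaling, pseudocount, filter, weights, moderation and each animal or library left out.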

Additional observations from a re-analysis of the deposited data

Results flagged for a closer look

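Among 20 groups of 5 libraries (10 genes on 2 sides), 2 had a library far from the other 4 (gap over range above 0.71, which chance gives in about 5% of groups). Esm1 was at 7.48 CPM in the right eye of animal 65, and the other 4 right eyes lay between 5.55 and 6.06 CPM. Car4 was at 0.419 CPM in the left eye of animal 61, where the other 4 left eyes lay between 0.135 and 0.212 CPM and the whole range is 9 to 31 reads.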

How the results depend on the processing

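In 25 alternatives, 0 genes, 0 list genes and 0 of the 9 tested endothelial genes were called, without the replicate block (0 genes, adjusted p of at least 0.9998 in limma) as with it, and the smallest adjusted p of any gene was 0.410. At an unadjusted p under 0.05 the fits counted 266 to 861 genes. In the 10 settings that kept all libraries the 9 estimates stayed above 0. With each animal or library left out, Pecam1 ran from -0.052 to 0.10 and Cdh5 from -0.033 to 0.115. Both were below 0 without animal 61, 65 or 66 or either eye of these animals, which makes 9 of 15 such fits. The other 7 genes stayed above 0, though Plvap was 0.03 and Cldn5 0.02 without animal 65. With the animal as a block, leaving out 1 eye removes the whole pair, so the 15 fits only repeat the estimates of leaving out each of the 5 animals. Car4 was tested only without a filter (log2 difference 0.10 ± 0.20, SE, adjusted p = 0.9999 in limma), and at 9 to 38 reads a library its depth limits any statement about it.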
